A study of Mus musculus with 6 samples.

Results

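Circular RNAs whose back-spliced ends lie less than 5 kb apart on the genome were described, chosen by a span (end minus start plus 1) under 5000 bases and by no measured value. They were 618 of the 1273 circular RNA loci read in the study (48.5%) and held 12552 of the 22147 back-splice reads (56.7%). A circular RNA forms when the spliceosome joins the end of an exon back to the start of the same exon or of one upstream, often with the help of paired repeats in the flanking introns. The closed ring has no free ends for exonucleases, so such RNAs outlast most linear messages, and in macrophages and other innate immune cells they are known as ligands or decoys of RNA sensors, proteins and miRNAs. A read across the back-splice is the only part of such a molecule that cannot come from the linear message.

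RNA came from adherent peritoneal cells of male Balb/c mice aged 6 to 8 weeks that had received 0.2 mL of BSN-37 at 48 µg/mL, a compound known here by its code name, or 0.2 mL of phosphate-buffered saline (PBS) into the peritoneum. All mice had also received 2 mL of 3% thioglycollate broth 3 days before sampling, which draws monocytes and macrophages into the cavity. Cells were washed out 12 h after the injection, left to adhere for 4 h and pooled from 6 mice per library, giving 3 BSN-37 and 3 PBS libraries of rRNA-depleted RNA. The design text describes microarrays, whereas the library protocol and the values are those of sequencing.

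The 6 macrophage markers (Adgre1, Csf1r, Cd68, Itgam, Mertk and Lyz2) summed to 15132 to 17807 FPKM in the BSN-37 libraries and to 15123 to 17479 FPKM in the PBS libraries. Most of each sum was Lyz2, with 13215 to 15802 FPKM in the BSN-37 libraries and 13303 to 15603 FPKM in the PBS libraries. T cell and mast cell markers stayed under 1 FPKM in every library, with Mcpt4, a mast cell protease, at 0 in all but 1 library. The 3 monocyte markers (Ccr2, Ly6c2, Plac8) summed to 78.3 to 94.0 FPKM in the BSN-37 libraries, against 36.3 to 42.2 FPKM in the PBS libraries. The 4 B cell markers summed to 11.3 to 24.5 FPKM in the BSN-37 libraries and 5.76 to 12.3 FPKM in the PBS libraries. For the 4 neutrophil markers the sums were 32.1 to 108 and 18.2 to 53.3 FPKM. S100a8 and S100a9 made up most of these sums and had higher means after BSN-37. The other neutrophil markers had lower means after BSN-37, with Ly6g at 0.808 against 1.32 FPKM and Cxcr2 at 1.25 against 1.60 FPKM. The 3 haemoglobin genes that mark red cells summed to 0.670, 0.160 and 29.6 FPKM in BSN-37 libraries 1 to 3 and to 1.13, 20.1 and 0.304 FPKM in PBS libraries 1 to 3. The part of these cells in the results given here was not tested. Gene reads ran from 55.9 to 65.5 M per library, and back-splice reads were 4564, 3723 and 2447 in BSN-37 libraries 1 to 3 and 4122, 2964 and 4327 in PBS libraries 1 to 3.

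The sequence that exists in a circle and not in the annotated linear transcript is the junction itself. It is shown for the 5 most read short circular RNAs whose junction lies in coding sequence of 1 annotated transcript, and for that of Maml2, which was read in PBS libraries alone. Each line holds the last 30 bases of the circle's final exon in lower case and, in capitals, the 30 bases that open its initial exon, to which the splice returns (GENCODE M21 transcripts, GRCm38).
Cacna1d, chr14:30346798-30350949, minus strand: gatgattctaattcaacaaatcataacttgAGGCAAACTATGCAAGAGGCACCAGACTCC
Nfix, chr8:84771784-84772315, minus strand: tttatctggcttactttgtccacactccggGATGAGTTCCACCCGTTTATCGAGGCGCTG
Arid1a, chr4:133719537-133723051, minus strand: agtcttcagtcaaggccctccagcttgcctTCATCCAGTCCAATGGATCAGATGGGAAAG
Alg12, chr15:88811297-88812159, minus strand: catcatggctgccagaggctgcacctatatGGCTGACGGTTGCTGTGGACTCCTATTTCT
Zfp644, chr5:106634831-106638635, minus strand: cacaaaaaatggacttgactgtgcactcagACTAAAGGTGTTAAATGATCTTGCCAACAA
Maml2, chr9:13619990-13621675, plus strand: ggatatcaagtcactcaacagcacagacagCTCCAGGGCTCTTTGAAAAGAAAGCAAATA

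The Cacna1d circle joins exon 3 back to exon 2 of a transcript of 47 exons and would hold 416 bases if spliced as annotated. The Nfix circle is exon 2 alone, 532 bases, and that of Maml2 is also a lone exon 2, of 1686 bases. Arid1a gives exons 2 to 4 (780 bases), Alg12 exons 6 and 7 (328 bases) and Zfp644 exons 3 to 5 (3539 bases). All 6 circles are coding sequence throughout.

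Spans ran from 163 to 4994 bases with a median of 1449.5, and 244 of the 618 loci were under 1 kb. At the limit, the loci just inside were in Acin1 (4994 bases, 8 reads) and Slc25a33 (4972 bases, 2 reads), and those just outside were in Tmem184c (5003 bases, 5 reads) and Mcmbp (5007 bases, 7 reads). The shortest locus (163 bases, 3 reads) lay in no annotated gene. The 618 loci lay in 550 distinct host genes, of which 508 held 1 short circular RNA, 39 held 2 and 3 held 3, while 23 loci had no host. Of the 595 loci with a host, 586 lay in a protein-coding gene.

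Exon-bounded circles made up most of the short class by reads. Both ends fell on annotated exon boundaries for 343 loci (55.5%), which held 89.8% of the short back-splice reads. A further 158 loci (25.6%) lay inside introns with 4.34% of the reads, 50 had 1 end at an exon boundary, 35 spanned exon and intron and 9 lay inside 1 exon. The intronic loci had a median of 2 reads, and 144 of the 158 were read in 1 library. Their host genes had a median of 11.3 FPKM, against 3.88 FPKM for the hosts of the exon-bounded loci.

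Intron-internal loci were a larger share of the short class than of the longer ones. Per library, they were 18.2 ± 3.55% of the short loci detected and 2.91 ± 1.50% of the longer loci (SD, n = 6 libraries), and the difference of 15.2 percentage points had the same sign in 6 of 6 libraries (exact sign-flip permutation test, two-sided p = 0.03125, the smallest that 6 libraries allow). Exon-bounded loci were 67.6 ± 4.90% of the short loci and 79.3 ± 2.78% of the longer ones, lower in 6 of 6 libraries (exact permutation p = 0.03125). Both tests were chosen after the data had been seen. An intron-internal locus must fit inside an intron, so the span rule itself limits how many longer loci can be of that kind. The 2 shares are parts of the same whole, and neither p is independent of the rule. Among the 120 loci under 500 bases, 60 lay inside introns and 31 were exon-bounded, whereas among the 70 loci of 4000 to 5000 bases 2 lay inside introns and 51 were exon-bounded.

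**Figure D1:**
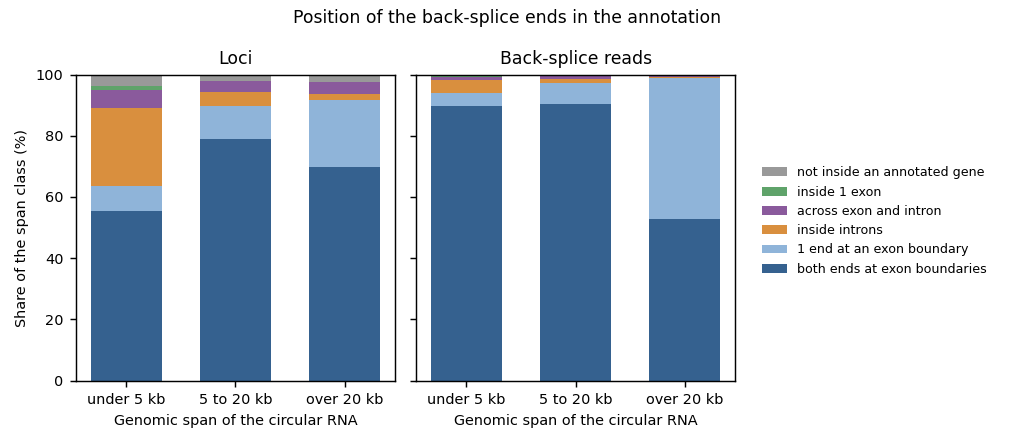
Share of loci (left) and of back-splice reads (right), in percent, by where the ends lie in the annotation, for circular RNAs spanning under 5 kb (618), 5 to 20 kb (450) and over 20 kb (205). Intron-internal loci are 25.6% of the short loci but 4.34% of their reads.

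Among the exon-bounded loci, 339 could be placed in 1 transcript, and these were small circles of few exons. There were 102 circles of 1 exon, 121 of 2 exons and 71 of 3, with a median of 2 exons, against a median of 4 for the 345 placed circles of 5 to 20 kb. If spliced as annotated, the median length was 516 bases (range 127 to 3539). It was 622 and 873 bases in the classes of 5 to 20 kb and over 20 kb. The span rule itself limits how many exons and bases a circle can hold, so neither contrast is independent of it. Exon 2 was where 141 of the 339 started (41.6%), and 0 started at exon 1, whose upstream end has no splice acceptor. The share that started at exon 2 was 37.7% for 5 to 20 kb and 41.7% for over 20 kb. Median GC content was 50.0% for the short circles, against 46.1% and 46.7% in the longer classes.

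Among the 339 placed circles, those of 1 exon held the most reads. They had 5761 reads in 102 loci, against 2910, 1184 and 381 reads for circles of 2, 3 and at least 4 exons, and a median of 21 reads, against medians of 5, 5 and 4 reads for circles of 2, 3 and at least 4 exons. Of the 1-exon circles, 46 (45.1%) were read in at least 3 libraries, against 22 of 121 of the 2-exon circles (18.2%). The median length of the 1-exon circles was 816.5 bases, longer than the 378 bases of the 2-exon circles. Coding sequence filled 246 of the 339 circles. Of these 246, 79 (32.1%) had a length that is a multiple of 3, so that a reading frame would run on across the junction. This share was 33.7% for 5 to 20 kb and 38.5% for over 20 kb, and 1 in 3 of any lengths are multiples of 3. The start codon of the host protein lay inside 80 circles.

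The 10 most read circles held 36.4% of the short back-splice reads, and all 10 were exon-bounded. The most read came from Tulp4, a gene of the tubby-like protein family, at chr17:6137211-6139156 on the plus strand, with 155, 153 and 111 reads in BSN-37 libraries 1 to 3 and 153, 176 and 220 in PBS libraries 1 to 3. Exon 2 of Ep400, a chromatin-remodelling ATPase, gave 147, 128 and 76 reads in the BSN-37 libraries and 129, 91 and 151 in the PBS libraries. Exon 2 of Slc8a1, the sodium-calcium exchanger (a host assigned from GENCODE), gave 91, 99 and 56 reads after BSN-37 and 79, 60 and 113 after PBS. In these 3 circles the groups overlapped, and BSN-37 library 3 had the fewest reads of its group, as it had the fewest back-splice reads in all. In bulk RNA of this kind, fewer cells that carry a circle and fewer copies per cell cannot be told apart.

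Nfix, a transcription factor of the nuclear factor I family, had 98, 87 and 57 reads in the BSN-37 libraries and 85, 59 and 64 in the PBS libraries. Pwwp2a, a chromatin-binding protein, had 45, 33 and 33 reads after BSN-37 and 33, 34 and 44 after PBS. Alg12, a mannosyltransferase of N-glycan assembly, had 56, 27 and 39 reads after BSN-37 and 33, 36 and 44 after PBS. These 3 circles were read in all 6 libraries with overlapping groups. The Zfp644 circle, from a zinc finger gene, had 56, 51 and 31 reads in the BSN-37 libraries and 8, 41 and 44 in the PBS libraries, with PBS library 1 far below the rest. Insr, the insulin receptor gene, was the only one of the 10 whose groups did not overlap, with 21, 23 and 30 reads after BSN-37, all below the 34, 37 and 32 after PBS.

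Of these 10, the circles of Cacna1d and Arid1a each had 1 library without a read. Cacna1d encodes the pore of an L-type calcium channel, and its circle had 180, 133 and 0 reads in the BSN-37 libraries and 51, 122 and 161 in the PBS libraries. Arid1a encodes a subunit of the BAF chromatin remodeller, and its circle had 78, 90 and 89 reads after BSN-37 and 58, 0 and 101 after PBS. The source of these zeros was not tested.

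**Figure D2:**
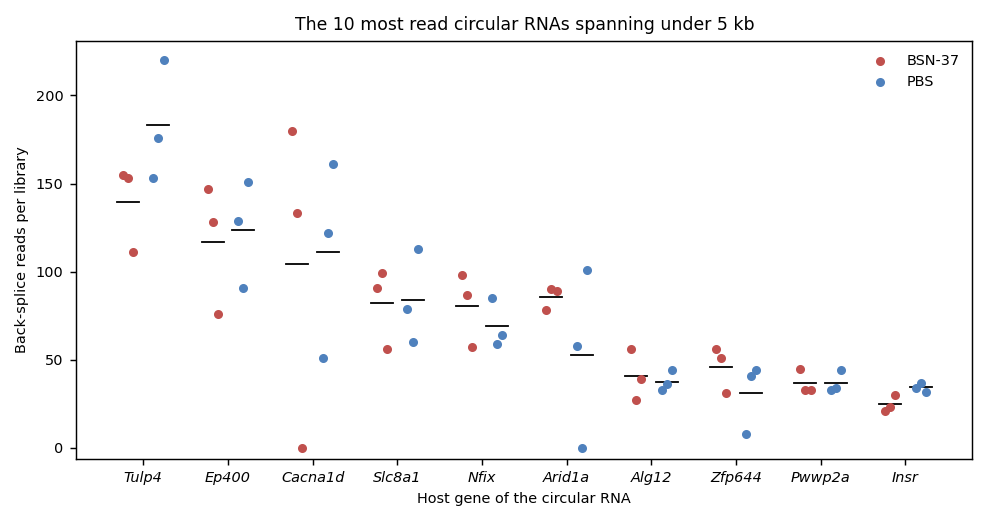
Back-splice reads per library of the 10 most read circular RNAs spanning under 5 kb, with BSN-37 libraries left of PBS libraries at each host gene and a line at each mean (n = 3). The groups overlap for 9 of the 10, with lone libraries at 0 for Cacna1d and Arid1a, and the 3 BSN-37 values of Insr lie below its 3 PBS values.

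With edgeR on the back-splice reads, none of these 10 passed the threshold, and the adjusted p (Benjamini-Hochberg over 168 circular RNAs) was 0.996 for each. The log2 changes, BSN-37 over PBS, were -0.32 (SE 0.36) for Tulp4, -0.01 (SE 0.44) for Ep400, 0.04 (SE 0.45) for Slc8a1 and 0.27 (SE 0.44) for Nfix. Insr stood at -0.45 (SE 0.47). For Cacna1d and Arid1a the standard errors were 1.36 and 1.24, wider than for the circles read in every library.

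The linear RNA of these host genes did not pass with edgeR either. Tulp4 had 38.4 ± 3.53 FPKM in the BSN-37 libraries and 37.9 ± 4.46 FPKM in the PBS libraries, and Ep400 had 22.7 ± 0.278 and 21.9 ± 0.793 FPKM (SD, n = 3 pools per group). Slc8a1 had 3.79 ± 0.805 FPKM after BSN-37 and 3.20 ± 0.731 FPKM after PBS. Cacna1d had 7.09, 6.42 and 7.56 FPKM in the BSN-37 libraries, all above the 4.37, 5.51 and 4.01 FPKM in the PBS libraries (log2 change 0.58, SE 0.15; adjusted p = 0.385 with edgeR and 0.0395 with DESeq2, Benjamini-Hochberg). The circle of Cacna1d showed no such separation, and the difference between circle and linear RNA was not tested.

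Set against the reads of the host gene, the circles differed widely. The 83 exon-bounded members read in at least 3 libraries had from 0.530 to 111 back-splice reads per 1000 reads of their host gene, with a median of 4.599. These ratios are not per length, and host reads may include reads from the circle's own exons. The Slc8a1 circle stood highest with 498 reads against 4499 gene reads, or 133, 102 and 77.0 per 1000 in the BSN-37 libraries and 152, 86.5 and 124 per 1000 in the PBS libraries. The Pvt1 circle followed at 56.0 over all libraries, then Alg12 at 29.99 and Cacna1d at 27.8, while Tulp4, with more back-splice reads than any of them, stood at 11.04. Across the 85 members with a tested host, log2 reads of the circle and log2 mean host FPKM had a Pearson r of 0.49 and a Spearman coefficient of 0.50, a description over loci that share the same 6 libraries.

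Several hosts are known from other work for their circles, and 5 more of these were read in at least 3 libraries. The circle of Fbxw7, the substrate receptor of a ubiquitin ligase, had 26, 17 and 25 reads after BSN-37 and 24, 21 and 33 after PBS. That of Hipk3, a nuclear kinase, had 25, 37 and 0 reads after BSN-37 and 34, 0 and 44 after PBS. Exon 2 of Pvt1, the long non-coding RNA gene beside Myc, had 7, 5 and 17 reads after BSN-37 and 16, 10 and 8 after PBS. All 3 had overlapping groups. Zfp609, a zinc finger gene whose human counterpart gives a well-studied circle, had 6, 8 and 8 reads after BSN-37 and 5, 0 and 28 after PBS. Cdyl, a chromodomain protein, had 0, 5 and 0 reads after BSN-37 and 6, 0 and 19 after PBS. Their edgeR adjusted p (Benjamini-Hochberg) was 0.996 for each. Exon-bounded circles of Hipk2 (23 reads), Foxo3 (11), Rere (6) and Elf1 (5) were read in 1 library each. So was a longer Ep400 circle of exons 2 and 3 (8 reads). The Asph locus (3 reads in 1 library) lay inside introns.

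As a class, the short circular RNAs took shares of the back-splice reads that differed between the groups by less than the spread of the libraries. The share was 55.9, 59.8 and 54.7% in BSN-37 libraries 1 to 3 and 55.8, 54.9 and 58.0% in PBS libraries 1 to 3, or 56.8 ± 2.69% and 56.2 ± 1.63% (SD, n = 3 each; exact permutation test, two-sided p = 0.8). Per 10 M gene reads there were 456, 368 and 206 short back-splice reads in the BSN-37 libraries and 381, 262 and 384 in the PBS libraries. The means were 343 ± 127 and 342 ± 69.7 (exact permutation p = 1).

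Against the reads of their own 546 host genes, the short circular RNAs had 0.939 ± 0.375 back-splice reads per 1000 in the BSN-37 libraries and 0.976 ± 0.244 per 1000 in the PBS libraries (exact permutation p = 0.9). Thinned to the 2447 reads of the shallowest library, 159 ± 41.7 short circular RNAs would be detected after BSN-37 and 162 ± 31.5 after PBS (exact permutation p = 0.9). With 3 libraries against 3 the smallest p is 0.1, so no difference of any size could have passed 0.05. BSN-37 library 3 was the lowest in each of these 4 measures, and leaving it out gave differences (BSN-37 minus PBS) of 1.60 percentage points, 69.9 reads per 10 M gene reads, 0.163 per 1000 host gene reads and 20.3 circular RNAs.

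**Figure D3:**
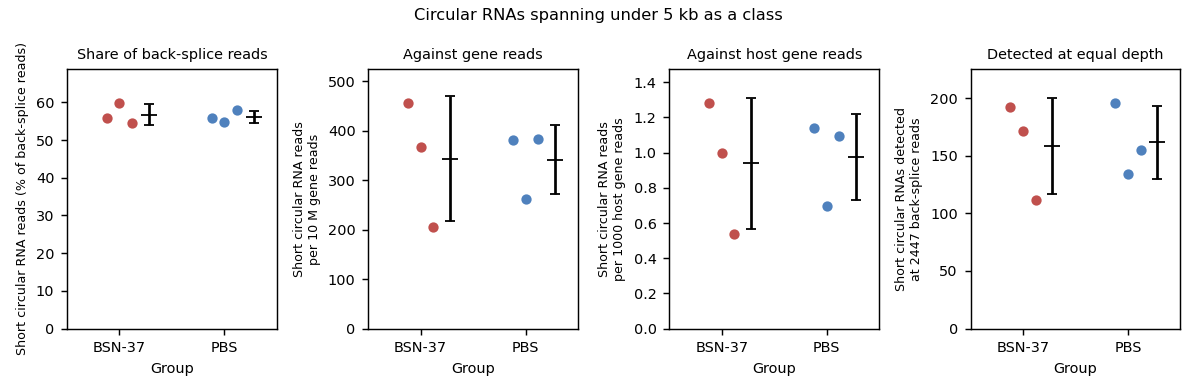
Circular RNAs spanning under 5 kb in each library, as a share of back-splice reads (%), per 10 M gene reads, per 1000 host gene reads and as the number detected at 2447 back-splice reads. Points are libraries, BSN-37 left and PBS right, with mean and SD (n = 3) beside them, and the groups overlap in all 4 panels.

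Among loci with both ends at exon boundaries, the short share was 63.9, 63.3 and 64.6% in the BSN-37 libraries, all above the 57.7, 57.9 and 61.9% in the PBS libraries (exact permutation p = 0.1, the smallest possible). Among loci read in all 6 libraries the order was the other way, with 59.1 ± 5.58% after BSN-37 and 64.2 ± 1.34% after PBS (exact permutation p = 0.3). Both subsets were chosen after the data had been seen.

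Short loci had more reads on average than all longer loci pooled. The ratio of mean reads per detected locus, short over all of 5 kb or more, was 0.33 ± 0.15 on the log2 scale (SD, n = 6 libraries; 6 of 6 above 0; exact sign-flip permutation test, two-sided p = 0.03125). It rested on the most read members: without the 5 of them it was -0.067. Those 5 held 26.2% of the short reads. Short loci had 11.2 to 15.3 reads per detected locus over the 6 libraries, against 6.77 to 8.95 for 5 to 20 kb and 11.5 to 18.8 for over 20 kb, and the loci over 20 kb stood above the short ones in 5 of 6 libraries. Median total reads were 4 for short and longer loci alike.

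Most members were seen rarely. In 462 of the 618 (74.8%) reads came from 1 library, and 27 were read in all 6, with 44.6% of the short reads. Reads from BSN-37 libraries alone marked 242 members (1195 reads), and reads from PBS libraries alone marked 249 (1232 reads). The 127 members read in both groups held 80.7% of the reads. Of the 242 and 249, those read in all 3 libraries of their group numbered 0 for BSN-37 and 2 for PBS.

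Zeros also occurred among well-read members. Of 45 with at least 60 reads in all, 20 had no read in at least 1 library. Those at 0 numbered 4, 3 and 13 in BSN-37 libraries 1 to 3 and 2, 6 and 0 in PBS libraries 1 to 3, so that BSN-37 library 3 held the most and PBS library 2 the next most. These were also the libraries with the fewest back-splice reads and with red cell markers at 29.6 and 20.1 FPKM, whose part in the zeros was not tested. The smallest count above 0 among the 45 was 4, and in the whole table it was 2. Of 26 longer circular RNAs with as many reads, 14 had a 0. Drg1, a GTP-binding protein gene, had a locus that Sfi1 also overlaps, with 0, 0 and 52 reads after BSN-37 and 44, 28 and 32 after PBS, and exon-bounded Sp3, from a transcription factor gene, had 0, 0 and 0 after BSN-37 and 28, 0 and 69 after PBS. A floor of 3 reads for such zeros covers counting error only, and whether they reflect absent molecules was not tested.

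**Figure D4:**
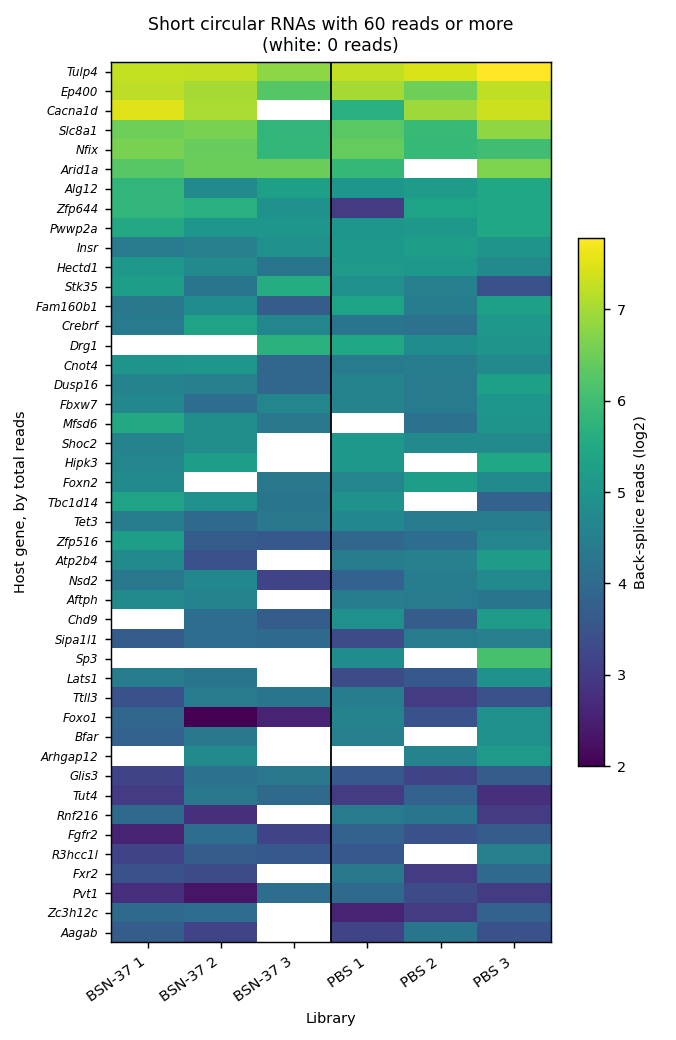
Back-splice reads (log2 colour scale) in each library, BSN-37 left and PBS right of the line, for the 45 short circular RNAs with at least 60 reads, named by host gene. White cells hold 0 reads and are most frequent in BSN-37 library 3, with 13 of 45.

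To ask which short circular RNAs differed after BSN-37, edgeR was fitted to the 168 circular RNAs read in at least 3 libraries. It called 1 of the 168 at an adjusted p under 0.05 (0.595%) and had 5 at an unadjusted p under 0.05 (2.98%). Of the 91 short ones among them, 0 were called and 2 had an unadjusted p under 0.05, both lower after BSN-37. DESeq2 called 1 of the 91, against 2 of all 168 (1.19%), and limma with zeros taken as missing called 0 of 55. Of the 91, 46 had a higher mean after BSN-37 and 45 a lower one, and the median log2 change was 0.01, beside -0.02 over all 168. The groups did not overlap for 6 of the 91, against 10 of all 168 (5.95%). Tent4a and Maml2 were among the 6, and they were also the 2 with an unadjusted p under 0.05. Both passed the filter through PBS libraries alone, so their separation was fixed in advance. The spread between libraries was large, with a median dispersion of 1.62 for circular RNAs against 0.0242 for coding genes. In simulated circular RNA counts, 0 of 20 changes of 4-fold were called, so 0 calls cannot show that circles stayed unchanged.

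The lowest p belonged to the circle of Tent4a (Papd7 in the deposited gene table), a non-canonical poly(A) polymerase, at chr13:69512890-69515903 on the minus strand, exons 2 to 4 of 13. It had 0, 0 and 0 reads in the BSN-37 libraries, against 16, 9 and 12 in the PBS libraries. Set against a floor of 3 reads over the group it was 12.4-fold lower after BSN-37, a figure that takes the PBS reads as exact. Its adjusted p was 0.968 by edgeR and 0.0176 by DESeq2 (Benjamini-Hochberg). Its linear RNA had 10.8 ± 2.30 FPKM after BSN-37 and 9.86 ± 2.29 FPKM after PBS (SD, n = 3 each). The Maml2 circle, from a coactivator of Notch, had 0, 0 and 0 reads after BSN-37 and 8, 2 and 4 after PBS. On the same floor it was 4.79-fold lower after BSN-37 (edgeR adjusted p = 0.996 and DESeq2 0.856, Benjamini-Hochberg). Well-read circles also had lone libraries at 0, so neither fold is a lower bound. Both circles met the minimum of 3 libraries through PBS libraries alone, and so had to differ. Maml2 itself was at 0.627 ± 0.0822 FPKM after BSN-37 and 0.461 ± 0.0921 FPKM after PBS.

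The next of lowest p on the lower side had reads in both groups. Foxo1, a transcription factor, had an exon 2 circle with 15, 4 and 6 reads in the BSN-37 libraries and 24, 11 and 30 in the PBS libraries (log2 change -1.30, SE 0.89). Fam160b1 had 20, 28 and 13 reads after BSN-37 and 41, 22 and 39 after PBS (-0.68, SE 0.59). Rsbn1 had 0, 0 and 2 reads after BSN-37 and 0, 8 and 4 after PBS. For all 3 the groups overlapped, with edgeR adjusted p of 0.996 (Benjamini-Hochberg).

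On the higher side no member reached an unadjusted p under 0.05. Stk35, a serine/threonine kinase, had an exon 3 circle with 38, 19 and 48 reads in the BSN-37 libraries and 30, 23 and 11 in the PBS libraries (log2 change 0.69, SE 0.63). Arhgap5, a GTPase-activating protein, had 3, 5 and 3 reads after BSN-37 and 0, 0 and 2 after PBS, and Acvr2a, an activin receptor, 9, 6 and 16 after BSN-37 and 6, 0 and 0 after PBS. Apart from Stk35, the members named for the higher side were thinly read. Knl1, a kinetochore scaffold, had 14, 8 and 0 reads after BSN-37 and 0, 3 and 0 after PBS, and Rab3ip, an exchange factor of Rab8, had 5, 0 and 6 after BSN-37 and 2, 0 and 0 after PBS. The edgeR adjusted p (Benjamini-Hochberg) of all 5 was 0.996.

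**Figure D5:**
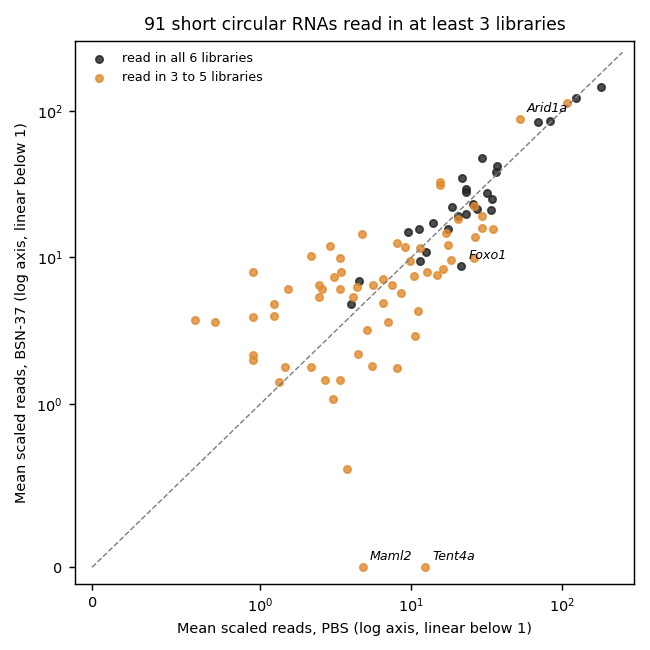
Mean scaled reads in BSN-37 libraries (vertical) against PBS libraries (horizontal) for the 91 short circular RNAs read in at least 3 libraries, on log axes that are linear below 1, with the dashed line at equal means. Reads are divided by the constant behind each library's SRPBM signal, relative to the mean constant, and Tent4a and Maml2 lie at 0 for BSN-37.

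Of the 27 members read in all 6 libraries, 14 were higher and 13 lower after BSN-37, with mean log2 differences between -1.45 and 0.91 and a median of 0.01. For 26 of the 27 the difference was under 1. The median coefficient of variation within a group was 33.2%. The groups did not overlap for 1 of them, Insr, beside 10 of all 168 circular RNAs tested (5.95%).

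In the authors' deposited table, 11 of the 618 short circular RNAs were called at an unadjusted p under 0.05 and 2-fold, against 20 of all 1273 (1.57%). Of the 11, 5 were called higher after BSN-37, against 6 of the 1273 (0.471%), and 6 lower, against 14 of the 1273 (1.1%). All 11 had 0 reads in every library of 1 group, and only Tent4a had reads in all 3 libraries of the other. The others had 2 libraries with reads, such as Patl1, a decapping factor, with 23, 15 and 0 reads after BSN-37 and 0, 0 and 0 after PBS, called higher in the authors' deposited table. Nsd1, a histone methyltransferase, had 0, 0 and 0 reads after BSN-37 and 13, 21 and 0 after PBS, and Bptf, a chromatin remodeller subunit, had 0, 0 and 0 after BSN-37 and 8, 0 and 12 after PBS. In 10 of the 11 calls, the group with reads also had a library at 0. The authors' deposited table also lists Sp3, Zfyve1 and Ccser2 as lower and Nab1, Mob3b and Nfatc3 as higher.

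Among the hosts with most short circular RNAs were Nfatc2 and Klhl8 with 3 each, and Ep400 had the most reads among those with 2. Nfatc2, a calcium-regulated transcription factor, gave a pair of circles that share 1 end. The longer of these had 6, 0 and 7 reads after BSN-37 and 15, 8 and 10 after PBS, and the shorter had 13, 0 and 8 after BSN-37 and 4, 8 and 8 after PBS. Both were at 0 in BSN-37 library 2, and the groups overlapped for the shorter but not for the longer. The remaining Nfatc2 circle, of exons 7 to 9, had 14 reads in all. The 3 circles of Klhl8 had 13 reads in all, each seen in BSN-37 library 1 or 2 alone.

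Of the 550 host genes, 483 passed the expression filter among 9850 coding genes tested (at least 1 FPKM in at least 3 libraries). edgeR called 0 of the 483, against 1 of the 9850 (0.0102%), and 45 had an unadjusted p under 0.05 (25 higher, 20 lower), against 890 of the 9850 (9.04%). DESeq2 called 4 of the 483, against 114 of the 9850 (1.16%). These were Cacna1d and Filip1l, higher after BSN-37, and Atp2b4, a plasma membrane calcium pump, and Ppfibp2, lower. The median log2 change of the hosts was 0.03, beside 0.00 over all genes tested. Atp2b4 had a circle of 119 reads, at 27, 11 and 0 after BSN-37 and 22, 23 and 36 after PBS.

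Of 46 genes of circular RNA formation, export and decay, 41 were tested and edgeR called 0, with 3 at an unadjusted p under 0.05, and DESeq2 called 0, beside the 0.0102%, 9.04% and 1.16% of all coding genes tested given above. Formation factors were higher for 13 of 20 and lower for 7, with a median log2 change of 0.09. Mbnl1, a splicing factor whose fly counterpart promotes a circle of its own gene, had 85.3, 94.2 and 89.2 FPKM after BSN-37 and 47.5, 73.9 and 71.0 FPKM after PBS (log2 change 0.53, adjusted p = 0.512 with edgeR, Benjamini-Hochberg). Qk, known for raising circle formation in human cells, had 61.8, 71.0 and 66.9 FPKM after BSN-37 and 30.4, 57.6 and 56.8 FPKM after PBS (log2 change 0.43, adjusted p = 0.593 with edgeR, Benjamini-Hochberg). PBS library 1 was the low one for both genes, and without it the log2 changes were 0.32 and 0.19. Sf3a1, a core splicing factor, had 8.22 ± 0.906 FPKM after BSN-37 and 10.0 ± 0.218 FPKM after PBS (adjusted p = 0.542 with edgeR, Benjamini-Hochberg). The 4 tested genes of the export list (Ddx39b, Xpo4, Ranbp1 and Nxf1) had log2 changes between -0.07 and 0.05. Ddx39a, also on that list, was not tested. Decay and modification genes were higher for 9 of 17 and lower for 8, among them Ythdf3, a reader of m6A, with 24.3, 27.9 and 27.6 FPKM after BSN-37 and 12.6, 22.2 and 21.1 FPKM after PBS (log2 change 0.49, adjusted p = 0.542 with edgeR, Benjamini-Hochberg). Without PBS library 1, again the low one, its log2 change was 0.26.

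The deposited table lists predicted miRNA partners for each circle, and 224 of the 618 short circular RNAs (36.2%) had none, with a median of 1 per circle against 2 for the longer ones. For exon-bounded circles the median was 1 in both classes, with 43.4% of the short and 42.8% of the longer without a prediction. Medians were 4.5 and 54.5 for loci with 1 end at an exon boundary, and 2 and 46 for those inside introns. The most read circles had few: Cacna1d, Nfix, Alg12 and Insr had 0, Tulp4 and Pwwp2a 2 each, Slc8a1 5, Ep400 and Zfp644 10 each and Arid1a 13. Those named for most short circles and found in RefSeq (GRCm38.p6) are shown with the seed, bases 2 to 8, in capitals, since the seed is what a partner site is matched to.
mmu-miR-149-3p: gAGGGAGGgacgggggcggugc
mmu-miR-7686-5p: cCUUCCACuggaccuggggcugggc
mmu-miR-326-5p: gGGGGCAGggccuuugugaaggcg
mmu-miR-1195: uGAGUUCGaggccagccugcuca
mmu-miR-5627-3p: aCAGGGCUcuccggcgccccucgu

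No seed was shared among these 5. They were predicted for 40, 38, 27, 26 and 26 of the 618 short circular RNAs (6.47, 6.15, 4.37, 4.21 and 4.21%), against 20.5, 23.2, 18.6, 15.3 and 12.1% of the 655 longer ones. These shares take no account of sequence length or of where the ends lie. The seed match was searched on the RNA strand of the 339 spliced circles, read around the junction. For miR-326-5p (CTGCCCC) it was in 15 of 18 circles with the prediction and in 17 of 321 without, and for miR-7686-5p (GTGGAAG) in 10 of 20 with and 21 of 319 without. For miR-1195 (CGAACTC) it was in 1 of 2 with the prediction and in 4 of 337 without. The predictions may themselves rest on seed matches, so these counts are no independent test of them. A match is a string of letters, and none of these miRNAs was measured here.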

How the data were processed

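Samples were grouped and numbered by their labels. Per the file headers, the deposited tables hold back-splice read counts, gene read counts, the authors' gene FPKM, and an SRPBM signal. They also hold an unadjusted p-value and a log2 change from the authors' own DESeq2 run, per the file headers. Coordinates are on GRCm38, the build named per the submitters' processing notes. The aligner, counter, strand setting and circle caller were not given in the sources used here. Every deposited SRPBM signal of the authors equals the reads divided by 1 constant per library (16.3 to 19.7), and the scale of that constant is not given. The 4 group-mean columns were not used, and 30 loci listed with several hosts were used once.

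Circular RNAs read in at least 3 of the 6 libraries were fitted with edgeR 4.0.16 (R 4.3.3; glmQLFit, glmQLFTest, two-sided, library sizes in proportion to the constants), and genes likewise with TMM factors, adjusted by Benjamini-Hochberg over each whole table at 0.05. DESeq2 1.42.0 and limma 3.58.1 were alternatives. Single class values were compared by exact permutation over libraries (Python 3.11.15). Ends were compared with exons of GENCODE M21, and spliced lengths take every annotated exon in between. Reads are counts with no molecular identifiers, so floors cover counting error only. Fits were tested on simulated data. For circular RNAs the fit recovered 0 of 20 changes of 2-fold, 0 of 20 of 4-fold and 3 of 20 of 8-fold. For coding genes it recovered 9 of 67 changes of 1.5-fold, 52 of 67 of 2-fold and 66 of 66 of 4-fold. False calls numbered 2 for circular RNAs and 11 for coding genes. No pair of libraries agreed within sampling noise (chi-square over degrees of freedom of 5.10 to 8.62 for circular RNAs).

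Members, lists and tests were chosen with earlier results of these data known. Named circles were the 10 most read, the 5 of lowest p in each direction, those of known hosts, those at the limit and those of the 4 hosts with most members. Cacna1d and Atp2b4 hosts, the authors' calls and members at 0 were named after their values were seen. Junctions that touch untranslated sequence were left out, so the 5 shown are not the 5 most read. Some circles that this rule names are not reported here.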

Additional observations from a re-analysis of the deposited data

How the results depend on the processing

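Short circular RNAs called numbered 0 in the edgeR fit, 1 with DESeq2 (either size factors, Tent4a), 1 without a filter and 1 with at least 10 reads (Sp3 in both), 2 at the design text's threshold (Tent4a and Maml2), and 0 to 1 with a library left out, the 1 being Drg1 without BSN-37 library 3. The other settings gave 0. Host genes called numbered 4 with DESeq2, and 0 in the other settings, leave-one-out included. Genes of formation, export and decay gave 0 in all.

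Differences in class measures were small and changed sign. The share (0.545 percentage points) was -2.11 over circular RNAs read in at least 3 libraries and -5.13 over those read in all 6 (added after seeing the data), and ran from -0.973 to 1.60 with a library left out. Reads per 10 M gene reads (1.35) were -1.87 under 4000 bases, -1.63 for at least 3 libraries and -0.377 for all 6, and ran from -55.1 to 69.9. Reads per 1000 host gene reads ran from -0.209 to 0.163, and the number detected from -19.9 to 20.3. The log2 ratio of reads per locus, short over longer (0.33), was 0.27 under 6000 bases and 0.20 for at least 3 libraries, no longer below 0.05, -0.067 without the 5 most read and -0.16 for all 6, and ran from 0.29 to 0.37 with a library left out, where 5 libraries allow no p under 0.0625. Members read in all 6 libraries were nearly all detected at equal depth, with means of 26.99 after BSN-37 and 26.97 after PBS of the 27.

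Deviations of same-numbered libraries were weakly correlated at most (r of -0.10 to -0.04 over circular RNAs and -0.07 to 0.13 over coding genes). For coding genes, 1 of the 3 pairs was above the r of 0.1 set for pairing, so pairing by number was not excluded. A replicate block gave 0 short circular RNAs, 0 host genes and 0 genes of the list called, and left the share at 0.545 (exact sign-flip p = 0.75), reads per 10 M gene reads at 1.35, reads per 1000 host gene reads at -0.04 and the number detected at -2.97. The 10 circles of lowest p kept their direction in every setting that could be fitted. They were picked by p and direction from the same reads, so this was largely fixed in advance.

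Depth limits these results: 350 of the 618 loci had 2 to 4 reads over all libraries.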
